A study of Mus musculus with 4 samples.

Results

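The cells described here were bone marrow stem and progenitor cells of the mouse that carried transcripts of MHC class II molecules. A cell was taken as a member when it held at least 1 UMI (a unique molecular identifier, which counts 1 captured transcript) of Mecom, a transcription factor gene of haematopoietic stem cells. It also had to hold at least 1 UMI in at least 2 of the 3 genes H2-Aa, H2-Ab1 and H2-Eb1, and 0 UMIs of Ebf1, Cd79a, Ifit1 and Iigp1, which mark B-lineage and interferon-responding cells. This rule gave 2716 members among 33042 cells that passed the filters, of 38266 deposited barcodes. The members were picked by measured values of these 8 genes, so the levels of those genes are given below as a description. Fewer cells with a transcript and fewer transcripts per cell cannot be told apart in sums over cells.

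The cells came from 2 male Tppp3CreER LSLTdTomato mice, in which a tamoxifen-inducible Cre under Tppp3 switches on a tdTomato reporter. Tamoxifen was given at postnatal days 0 and 3, and the marrow was taken at 3 months of age, so every group shares the genotype, the tamoxifen and the age. Lin-Sca+Kit+ cells were sorted into tdTomato-positive and tdTomato-negative fractions, which gave 4 hashtagged tubes, a positive and a negative one from each mouse. Cells of each tube were run with both 10x kits, GEM-X and v3.1, and a gene expression and a hashtag library were made for each chemistry, so the 4 deposited samples form 4 groups of 1. The labels describe the sort both as pooled over the mice and as 4 hashed samples, and here each hashtag stands for 1 mouse and gate. The reporter marks cells in which the Tppp3 promoter was active when tamoxifen was given, and their progeny. The p-values of the gene tests below rest on 4 tubes of 2 mice and on a spread that is pooled over genes. They say little about the spread between mice.

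MHC class II molecules are pairs of an alpha and a beta chain that display peptides to CD4+ T cells. H2-Aa and H2-Ab1 encode the chains of the I-A molecule, H2-Eb1 encodes the beta chain of I-E, and Cd74 encodes the invariant chain that guards the peptide groove and steers the molecule to endosomes. The coactivator CIITA switches these genes on together through conserved promoter elements. Dendritic cells, macrophages and B cells are the professional carriers of MHC class II, and stem and progenitor cells of mouse marrow are known to carry it as well.

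In all, 234563105 expression UMIs came from GEM-X and 178214937 from v3.1, and the chemistries shared 0 barcodes. The 2716 members had a median of 8837.5 UMIs and 3577 genes per cell. They were 309 and 279 cells of the tdTomato-positive tubes and 1131 and 997 cells of the tdTomato-negative tubes of mouse 1 and mouse 2. By chemistry they were 1470 GEM-X and 1246 v3.1 cells. The other eligible cells, which met every part of the rule but the MHC class II one, had none of the 3 genes (12607 cells, median 8223 UMIs) or 1 of them (6182 cells, median 9472 UMIs). A further 1183 cells with Mecom and at least 2 of the 3 genes were left out by the rule for a UMI of at least 1 of its 4 excluded genes, and 394 more for having no Mecom UMI.

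Most members stood close to the threshold of the rule. Their UMIs of the 3 genes together had a median of 3 and a range of 2 to 150, and 924 members (34.0%) held the minimum of 2, while 98 (3.61%) held 10 or more. H2-Aa with H2-Ab1 was the most frequent combination, in 1082 members (39.8%), and 722 members (26.6%) held all 3 genes. The combination of H2-Aa with H2-Eb1 was found in 513 members (18.9%), and that of H2-Ab1 with H2-Eb1 in 399 (14.7%). Just inside the threshold, the 1994 members with exactly 2 genes held 124, 104 and 56.9 CPM (UMIs of a gene scaled to the total UMIs of the summed cells) of H2-Aa, H2-Ab1 and H2-Eb1. Just outside it, the 6182 eligible cells with 1 gene held 28.6, 75.5 and 11.8 CPM of the same genes.

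H2-Aa (GRCm38, GENCODE M21, chr17:34282744-34287823) had 157 and 209 CPM in the members of the tdTomato-positive tubes of mouse 1 and mouse 2, and 132 and 168 in those of the tdTomato-negative tubes. H2-Eb1 (chr17:34305867-34316674) had 90.8 and 115 CPM in positive tubes, against 71.8 and 99.9 in negative ones. H2-Ab1 (chr17:34257689-34269419) had 143 and 132 CPM in positive tubes, against 116 and 134 in negative ones. For H2-Aa and H2-Eb1 the positive tube stood above the negative tube of the same mouse in both mice, whereas for H2-Ab1 it did so in mouse 1 only. Over the 4 tubes the members averaged 166 ± 32.2 CPM of H2-Aa, 131 ± 11.1 of H2-Ab1 and 94.3 ± 17.9 of H2-Eb1 (SD, n = 4 tubes of 2 mice), against 0 in the eligible cells with none of the 3 genes, as the rule fixes.

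**Figure D1:**
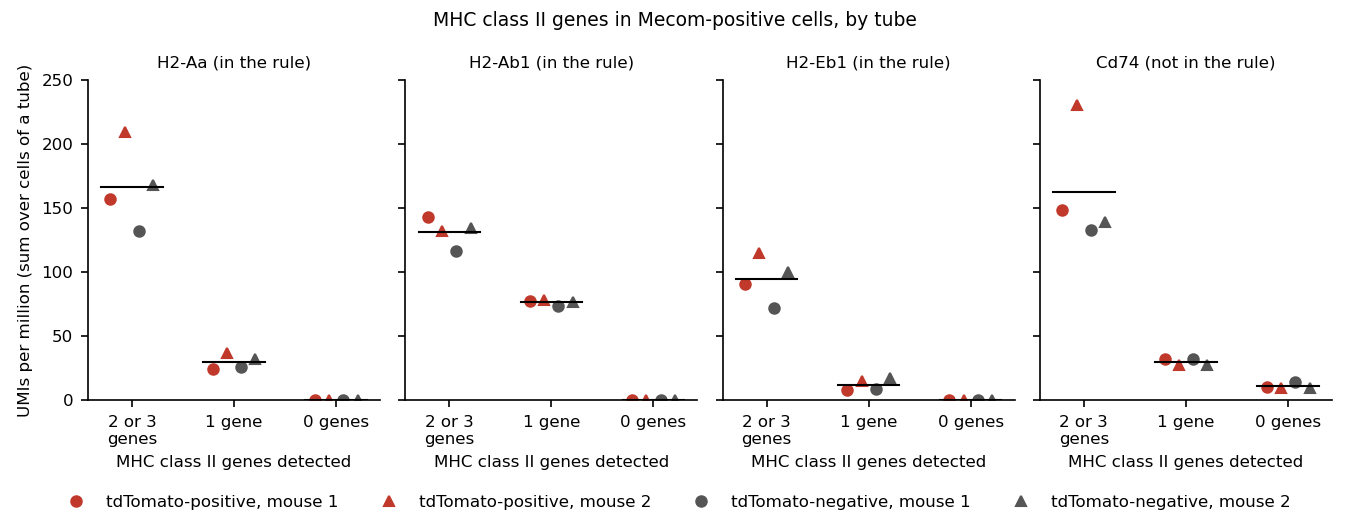
Level of 4 MHC class II genes (y axis, CPM) in Mecom-positive cells by the number of the genes H2-Aa, H2-Ab1 and H2-Eb1 detected (x axis). Each point is 1 tube (red positive, grey negative; circles mouse 1, triangles mouse 2) and each line the mean of 4 tubes; Cd74, which the rule did not use, averaged 163 in members, 29.4 in cells with 1 gene and 10.8 in cells with none.

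Promoters of 3 genes of the MHC class II pathway are printed because these genes are known to share promoter boxes. Joint detection of H2-Aa and H2-Eb1 in members was favoured by the rule itself, so no shared control can be read from it. Detection of H2-DMb1 together with these genes was not tested. RefSeq windows (GRCm38.p6) run from 250 bases before to 50 bases after the start of the gene and were found for H2-Aa, H2-Eb1 and H2-DMb1, which encodes a chain of the peptide-exchange factor H2-DM. Capitals mark an X box core (AGCAACTGATG in H2-Eb1 and AGTAACTGATG in H2-DMb1, searched with any base at the place where these differ), a CRE-type X2 box (TGACGTCA, a palindrome that matches both strands) and a Y box core (GATTGG, or CCAATC on the other strand). The windows are chr17:34287774-34288073 on the minus strand, chr17:34305617-34305916 on the plus strand and chr17:34152941-34153240 on the plus strand.
H2-Aa: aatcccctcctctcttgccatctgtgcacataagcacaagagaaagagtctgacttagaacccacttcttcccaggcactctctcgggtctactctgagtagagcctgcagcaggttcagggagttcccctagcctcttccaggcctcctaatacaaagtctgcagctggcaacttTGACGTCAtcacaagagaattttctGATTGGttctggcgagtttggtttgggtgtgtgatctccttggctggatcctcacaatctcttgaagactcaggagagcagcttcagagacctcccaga
H2-Eb1: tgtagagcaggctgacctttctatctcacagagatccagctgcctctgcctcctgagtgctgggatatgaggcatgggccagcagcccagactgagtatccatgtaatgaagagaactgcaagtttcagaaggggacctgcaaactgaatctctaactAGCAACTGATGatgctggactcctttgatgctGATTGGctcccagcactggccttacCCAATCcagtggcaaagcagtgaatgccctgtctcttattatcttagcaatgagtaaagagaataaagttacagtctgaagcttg
H2-DMb1: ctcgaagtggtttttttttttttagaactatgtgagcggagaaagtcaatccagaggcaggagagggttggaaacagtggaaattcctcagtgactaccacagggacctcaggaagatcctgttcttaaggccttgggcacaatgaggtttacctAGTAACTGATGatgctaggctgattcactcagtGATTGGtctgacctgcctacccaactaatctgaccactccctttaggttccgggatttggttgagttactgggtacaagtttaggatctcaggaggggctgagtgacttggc

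The X box core began 92 bases upstream of the start in H2-Eb1 and 95 bases upstream in H2-DMb1, and the Y box core 60 and 62 bases upstream. In H2-Aa the CRE-type box began 74 bases upstream and the Y box core 49 bases upstream. H2-Eb1 held a further Y box core on the minus strand, 35 bases upstream. On either strand, the X box core was present in 52 of 32851 promoter windows (0.158%), the CRE-type box in 588 (1.79%) and the Y box core in 5292 (16.1%). X and Y box cores stood together in 9 windows (0.0274%), which included those of H2-Eb1, H2-DMb1 and H2-Eb2. The letters were chosen after these windows had been read, so the shares describe these letters and are no test.

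Cd74 (chr18:60803848-60812652), which the rule did not use, followed the 3 chain genes. A Cd74 UMI was found in 1399 of 2716 members (51.5%), in 18.2% of eligible cells with 1 of the genes and in 7.37% of those with none. Within members it was found in 69.3% of cells with all 3 genes and in 45.1% of those with 2. By combination, it was most frequent in members with H2-Aa and H2-Eb1 among the pairs (56.1%), and less so with H2-Ab1 and H2-Eb1 (43.1%) or H2-Aa and H2-Ab1 (40.6%).

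Detection of the 3 genes was compared with that in committed cells that should lack MHC class II. Free RNA itself was not measured, and the source of the UMIs in committed cells was not tested. At least 2 of the 3 genes were detected in 12.6% of the 21505 eligible cells (exact 95% interval 12.2% to 13.1%), which had a median of 8594 UMIs. The same was seen in 3 of 300 Mecom-negative cells with Elane, Ms4a3 and Ctsg UMIs (1.0%, 0.207% to 2.89%), although these granulocyte-committed cells had a median of 25797 UMIs. Among 142 Mecom-negative cells with Klf1, Car1 and Ermap UMIs, the erythroid-committed cells (median 34326 UMIs), it was 4.23% (1.57% to 8.97%). It was 14.5% (10.1% to 19.8%) among 221 B-lineage cells with Ebf1 and Cd79a UMIs (median 8927 UMIs).

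In the committed cells H2-Ab1 differed from the other genes. It was detected in 32.7% of the granulocyte-committed and 39.4% of the erythroid-committed cells, where H2-Aa reached 1.0% and 3.52%, H2-Eb1 1.33% and 4.23%, and Cd74 3.0% and 3.52%. For every H2-Ab1 UMI, members held 1.15 H2-Aa UMIs in GEM-X and 1.27 in v3.1, against 0.0145 and 0.0294 in granulocyte-committed cells. B-lineage cells held 0.239 and 0.402 H2-Aa UMIs for each H2-Ab1 UMI, and 1.89 and 2.23 of Cd74, against 0.947 and 1.38 of Cd74 in members. Members required to hold both H2-Aa and H2-Eb1 were run as an alternative chosen after the data were seen, and their Cd74 log2 fold change over matched cells, a comparison described next, was 4.32.

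To describe the members beyond the rule, each was paired with an eligible cell of the same tube and chemistry that had 0 UMIs of the 3 genes and a total within 10%. This gave 2703 pairs, with median totals of 8821 UMIs in members and 8824 in matched cells, and left 13 members without a partner. Counts were summed per tube and class and tested with edgeR's quasi-likelihood test with the tube as a block. Of 12888 genes tested outside the rule, 1238 passed at an adjusted p of 0.05 (9.61%), 658 higher (5.11%) and 580 lower (4.5%) in members, and 2744 had an unadjusted p under 0.05. The median log2 fold change of all genes was -0.0011. Of the 1238 genes, 1026 had the same sign in all 4 tubes and both chemistries. Without the block 167 genes passed, and with DESeq2 309. With the tdTomato-negative tube of mouse 1 left out 395 passed, and with that of mouse 2 left out 818.

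Cd74 had the largest difference among the genes named outside the rule. It stood at 148 and 231 CPM in the members of the positive tubes of mouse 1 and mouse 2 and at 137 and 141 in those of the negative tubes, against 10.7, 10.2, 9.73 and 10.5 in the matched cells of the same tubes. The groups did not overlap, and the log2 fold change was 3.85 ± 0.07 (SE; adjusted p = 1.52e-31, 14.4-fold). It was 3.74 in GEM-X and 3.84 in v3.1. It was 3.58 without the 98 members that held 10 or more UMIs of the 3 genes.

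Genes of the MHC class II pathway other than Cd74 also rose in members. Of 15 tested genes on a list of this pathway, Cd74 among them, 5 rose and none fell, with a median log2 fold change of 0.32, against 5.11% higher over all genes tested. The other 4 that rose were Ciita, H2-DMb1, Ctss and H2-DMa. Ciita, which encodes the coactivator, stood at 4.60 and 6.36 CPM in members of the positive tubes and 5.53 and 6.60 in those of the negative tubes. In matched cells it stood at 1.53 and 2.55 in positive tubes, against 3.73 and 1.81 in negative ones, below the members in every tube. Its log2 fold change was 1.10 ± 0.23 (adjusted p = 0.000859), on few transcripts, with a UMI in 5.36% of members and 2.81% of matched cells. H2-DMb1, whose promoter is printed above, stood at 46.6, 58.1, 41.6 and 50.1 CPM in members, against 29.1, 31.9, 26.4 and 31.9 in matched cells, in the same order of tubes. The members did not overlap the matched cells, and the log2 fold change was 0.67 ± 0.07 (adjusted p = 4.8e-09).

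Ctss, which encodes the protease cathepsin S that trims the invariant chain, rose by 0.66 ± 0.09 on the log2 scale (adjusted p = 1.66e-06). H2-DMa, the partner chain of H2-DMb1 and named after its value was seen, rose by 0.32 ± 0.04 (adjusted p = 4.93e-07). A UMI of H2-DMa was found in 69.1% of paired members, 61.9% of matched cells, 76.3% of granulocyte-committed and 43.7% of erythroid-committed cells. For H2-DMb1 these shares were 37.4%, 25.4%, 51.0% and 7.04%. The committed cells had higher median totals and were not matched on depth. The 10 tested genes that did not pass ranged from -0.30 for Ifi30, a lysosomal thiol reductase, to 0.42 for Lgmn, another endosomal protease. They included the promoter-binding factors Rfx5 (0.16), Rfxap (-0.06) and Rfxank (0.04), and the H2-DM inhibitor chains H2-Oa (0.18) and H2-Ob (0.11). Without cells that held a UMI of a lineage gene (Elane, Ms4a3, Ctsg, Mpo, Car1, Klf1, Hbb-bs, Cpa3, Pf4, Dntt or Il7r), a restriction chosen after the data were seen, 4 of the 5 passed and Ciita did not (0.78, adjusted p = 0.403).

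Among genes outside the rule that averaged at least 10 CPM and had the same sign in every tube and chemistry, Cd74 and 9 others were named for the largest rises. Il1rapl2, a member of the interleukin-1 receptor accessory protein family, stood at 76.7, 73.0, 82.0 and 57.0 CPM in members of the tubes in the order above, against 25.2, 20.4, 29.1 and 21.9 in matched cells. No member value overlapped a matched one, and the log2 fold change was 1.49 ± 0.07 (adjusted p = 1.06e-18). Abcg3, an ABC transporter gene, had 35.0, 52.6, 33.3 and 45.1 CPM in members, against 16.6, 20.4, 12.2 and 20.3 in matched cells, again without overlap. Its log2 fold change was 1.26 ± 0.08 (adjusted p = 8.16e-14). B3galt1, which encodes a galactosyltransferase, averaged 30.8 ± 7.85 CPM in members and 15.6 ± 3.70 in matched cells (SD, n = 4 tubes of 2 mice; log2 fold change 1.02 ± 0.09).

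The remaining genes named by the rule for rises were lower in level. Ncam2, a neural cell adhesion molecule gene, rose by 1.27 ± 0.16 on the log2 scale, with 0.73 in GEM-X and 2.09 in v3.1. Tgm2, a transglutaminase gene, rose by 0.99 ± 0.13, with 1.40 in GEM-X and 0.40 in v3.1. Tgfbi, which encodes a matrix protein, rose by 0.98 ± 0.14, and Cpne8, a copine gene, by 0.97 ± 0.11. Npas2, a relative of the Clock transcription factor gene, rose by 0.94 ± 0.13, and Myo5c, an unconventional myosin gene, by 0.94 ± 0.14. Without cells with a lineage-gene UMI, Il1rapl2 (0.98), B3galt1 (0.82), Abcg3 (0.75) and Cpne8 (0.63) still passed, and Ncam2, Tgm2, Tgfbi, Npas2 and Myo5c did not. That restriction left 89, 128, 312 and 391 pairs in the 4 tubes, and 191 of 11051 genes tested (1.73%) passed, 0.606% higher and 1.12% lower.

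Under the same limits, 10 genes were named for the largest falls. Elane, which encodes neutrophil elastase, stood at 11.4 and 11.0 CPM in members of the positive tubes and 36.4 and 41.7 in those of the negative tubes. In matched cells of the same tubes it stood at 263, 25.5, 145 and 109. It was lower in the members of every tube, by 2.08 ± 0.15 on the log2 scale (adjusted p = 3.69e-13), although the shares of cells with an Elane UMI were close, 8.77% of members and 10.3% of matched cells. Mpo, myeloperoxidase, averaged 197 ± 69.3 CPM in members and 386 ± 127 in matched cells (SD, n = 4 tubes of 2 mice), and was detected in 41.4% and 56.6% of the cells. Its log2 fold change was -0.92 ± 0.04 (adjusted p = 1.22e-18).

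Cpa3, the mast cell carboxypeptidase gene, stood at 9.20, 17.0, 11.9 and 10.7 CPM in members, against 32.8, 37.8, 43.1 and 35.0 in matched cells. The groups did not overlap, and the fall was 1.74 ± 0.09 on the log2 scale (adjusted p = 2.64e-16). Ms4a3, a membrane protein gene of granulocyte and monocyte progenitors, fell by 1.52 ± 0.16, and Ctsg, cathepsin G, by 0.98 ± 0.07. Rab44, a Rab GTPase gene, fell by 1.06 ± 0.10, Emilin2, a matrix glycoprotein gene, by 0.95 ± 0.11, and Clec4e, a pattern-recognition receptor gene, by 0.78 ± 0.09. Gpsm2, which encodes a spindle-orientation protein, fell by 0.72 ± 0.13, and Depdc1b, a gene of dividing cells, by 0.67 ± 0.08. Without cells that held a UMI of a cell cycle gene (Mki67, Top2a, Cdk1, Ccnb1, Ccnb2, Ube2c, Cenpf, Plk1 or Aurka), also a restriction chosen after the data were seen, Mpo (-1.24), Cpa3 (-2.51) and Ctsg (-0.59) still passed, while Elane (-0.25, adjusted p = 0.716) and Ms4a3 (-0.74, adjusted p = 0.436) did not. Under that restriction 375 of 11118 genes tested (3.37%) passed, 1.82% higher and 1.56% lower.

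**Figure D2:**
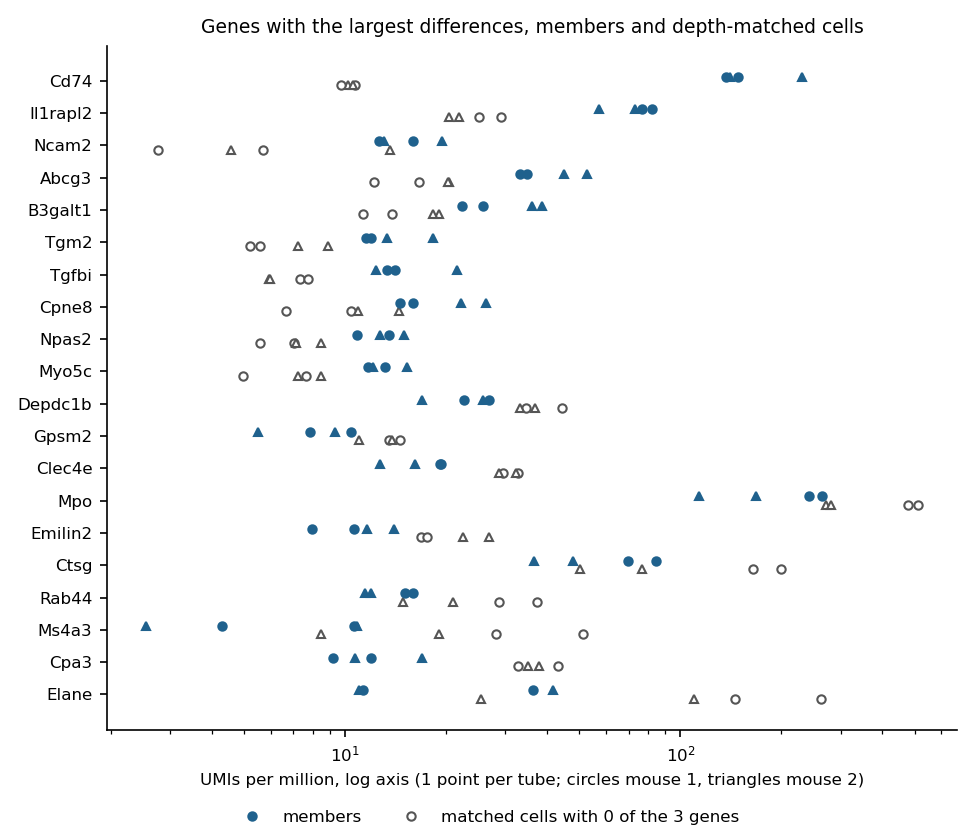
Levels (x axis, CPM, log scale) of the 20 genes with the largest rises and falls under the naming rule, in members (filled) and depth-matched cells with 0 of the 3 genes (open), 1 point per tube (circles mouse 1, triangles mouse 2). Members of all 4 tubes lie right of their matched cells for the 10 upper genes and left of them for the 10 lower genes, as the naming rule required.

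Genes of stem cell identity were higher in members. Of 23 tested genes on this list 14 rose and 1 fell (median log2 fold change 0.28), against 5.11% higher and 4.5% lower over all genes tested. Cdkn1c, which encodes the cell cycle inhibitor p57, stood at 15.0, 20.8, 14.6 and 16.4 CPM in members and at 10.7, 9.77, 7.90 and 8.41 in matched cells. The groups did not overlap, and the rise was 0.87 ± 0.12 on the log2 scale (adjusted p = 2.27e-06). Ly6a, the gene of the sorting antigen Sca-1, stood at 104, 104, 89.4 and 86.1 CPM in members and 65.0, 55.6, 48.6 and 53.6 in matched cells. It too was without overlap and rose by 0.77 ± 0.05 (adjusted p = 1.65e-13), with a UMI in 52.0% of members and 36.0% of matched cells. Hoxb5, a homeobox gene of long-term stem cells, rose by 0.78 ± 0.25 (adjusted p = 0.0391) in 3 of 4 tubes. The gene that fell was Gata2 (-0.20 ± 0.05), a transcription factor gene named after its value was seen. Mecom itself, a gene of the rule that both classes carried, stood at 768 ± 66.4 CPM in members and 560 ± 53.1 in matched cells (SD, n = 4 tubes of 2 mice).

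The sorting antigens moved apart. Of 17 tested antigen and receptor genes 6 rose and 2 fell (median 0.07), against 5.11% higher and 4.5% lower over all genes tested. Procr, the endothelial protein C receptor gene of stem cells, rose by 0.55 ± 0.08 on the log2 scale. Cd48, a gene of committed progenitors, stood at 93.6, 61.5, 105 and 69.9 CPM in members and at 128, 102, 141 and 97.6 in matched cells of the same tubes. It was lower in the members of every tube and fell by 0.48 ± 0.04 (adjusted p = 3.31e-10). Kit, the other antigen of the sort, differed by -0.05 ± 0.03 and did not pass. Without cells with a lineage-gene UMI 5 stem cell genes rose and 1 fell, against 0.606% higher and 1.12% lower over all genes tested. Under that restriction Ly6a (0.61) and Cdkn1c (0.84) still passed, while Procr (0.14) did not.

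Transcripts of late cell cycle phases were lower in members. All 23 tested genes of the G2/M list fell (median -0.45), against 4.5% lower over all genes tested, whereas none of 22 G1/S genes passed in either direction (median 0.02). Ube2c, a ubiquitin-conjugating enzyme gene of mitotic exit, stood at 90.5, 54.7, 87.7 and 68.2 CPM in members and at 109, 85.8, 139 and 107 in matched cells. It was lower in every tube and fell by 0.61 ± 0.05 on the log2 scale (adjusted p = 1.01e-11). Cenpa, a centromeric histone gene, fell by 0.63 ± 0.06, Ccnb2, a B-type cyclin gene, by 0.62 ± 0.06, and Plk1, a mitotic kinase gene, by 0.56 ± 0.10. Mki67 was detected in 30.3% of members and 37.2% of matched cells. Without cells with a cell cycle-gene UMI, none of the G2/M genes passed (median -0.13), some of which the restriction itself removes. The stem cell list still had 10 rises, against 1.82% higher over all genes tested.

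Quiescence genes had 5 rises and 3 falls among 19 tested (median -0.004), and here as for the next lists 5.11% of all genes tested were higher and 4.5% lower. Ndn, which encodes the growth suppressor necdin, rose by 0.95 ± 0.22 on the log2 scale, as did Cdkn1c and Egr1 (0.59 ± 0.14), whereas Cdkn1a, the p21 gene, fell by 0.50 ± 0.13. Of 16 tested immediate early genes 4 rose, among them Egr1, Zfp36 (0.40 ± 0.12) and Klf6 (0.28 ± 0.09). Of 15 tested genes reported for aged stem cells 4 rose and 2 fell, with Jam2 (1.19 ± 0.27), an adhesion molecule gene, and Mt1 (-1.02 ± 0.21), a metallothionein gene, at the ends.

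Falls outnumbered rises in the granulocyte-monocyte, mast cell and basophil, erythroid and megakaryocyte-platelet lists, but not in the lymphoid progenitor list. Over all genes tested 4.5% were lower and 5.11% higher. Of 17 tested granulocyte-monocyte genes 11 fell and none rose (median -0.64), and of 6 tested mast cell and basophil genes 4 fell (median -1.60). Ly6c2, a monocyte antigen gene, fell by 2.21 ± 0.24 on the log2 scale, and F13a1, a coagulation factor gene of monocytes, by 1.21 ± 0.23. Ms4a2, Hdc and Fcer1a, of the mast cell program, fell by 3.20, 2.02 and 1.47 at levels of at most 5.52 CPM in every tube. Of 12 tested erythroid genes 6 fell (median -1.05). Hbb-bs, a beta-globin gene that was far lower in members of 1 tube and higher in members of 2 others, stood at 0.92, 1.70, 1.53 and 2.13 CPM in members and at 1.23, 0.85, 39.3 and 1.60 in matched cells. Car1, a carbonic anhydrase gene, stood at 1.84, 2.12, 15.5 and 6.38 in members and at 85.3, 0.425, 52.7 and 33.3 in matched cells, lower in members in 3 of 4 tubes, and in cells without cell cycle UMIs its sign turned (3.33).

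Of 17 tested megakaryocyte-platelet genes 6 fell and 1 rose (median -0.21). Itga2b, the CD41 gene, fell by 0.47 ± 0.09 on the log2 scale, Selp, P-selectin, by 0.52 ± 0.12, and Gp5, a platelet glycoprotein gene, by 0.59 ± 0.17. Vwf, von Willebrand factor, stood at 6.44, 6.79, 4.22 and 8.62 CPM in members and 7.67, 5.10, 4.10 and 6.49 in matched cells, which overlapped, and did not pass (0.17 ± 0.17, adjusted p = 0.644). Of 13 tested lymphoid progenitor genes 4 rose and none fell (median 0.11). Lax1, a lymphocyte adaptor gene, rose by 0.29 ± 0.08 and Flt3, the receptor gene of multipotent and lymphoid progenitors, by 0.25 ± 0.03, while Dntt (0.03 ± 0.05) and Il7r (0.17 ± 0.19) did not pass. Without cells with a lineage-gene UMI, the granulocyte-monocyte and megakaryocyte-platelet lists each had 1 fall, and the erythroid and mast cell lists none. Over all genes tested 1.12% were lower under that restriction, and genes of these lists were themselves used to leave cells out.

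**Figure D3:**
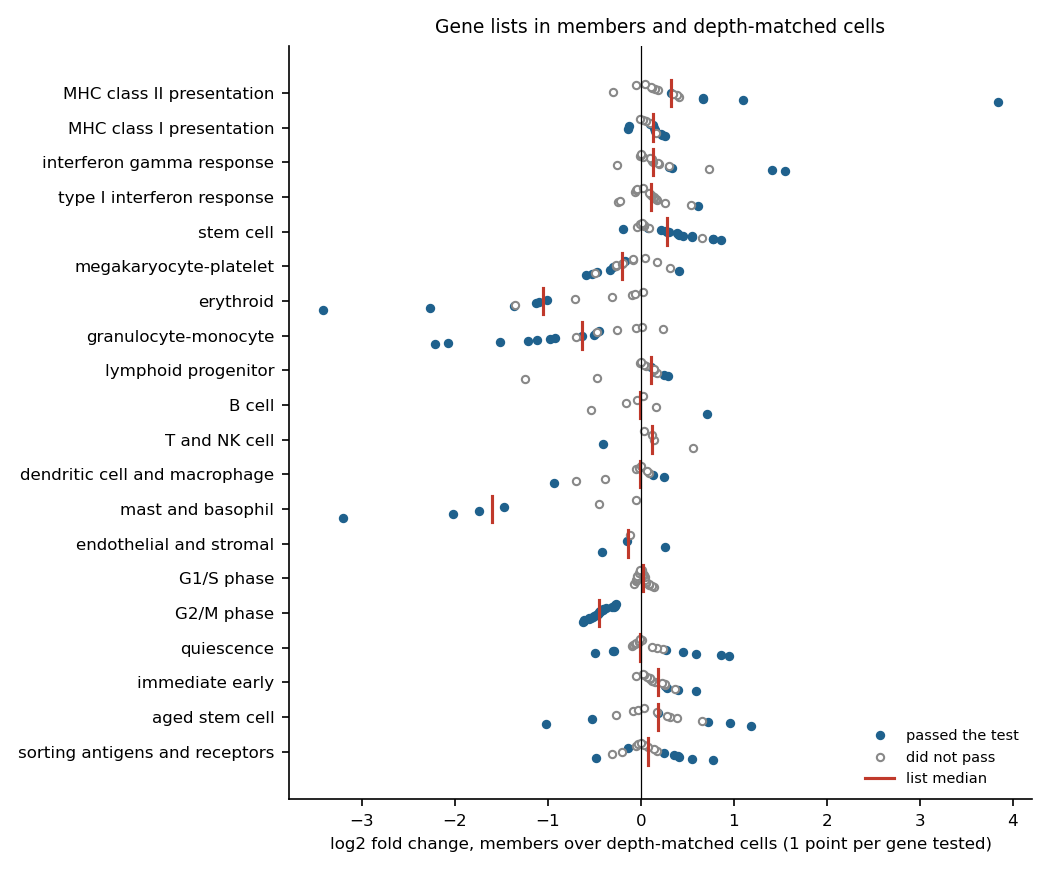
Log2 fold change of members over depth-matched cells (x axis) for every tested gene of 20 lists (y axis), 1 point per gene, blue where it passed edgeR's test at an adjusted p of 0.05; red lines mark list medians. All 23 G2/M genes lie left of 0, 14 stem cell genes passed to the right, and Cd74 lies far right at 3.85.

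Of 18 tested interferon gamma response genes 4 rose and none fell (median 0.13), against 5.11% higher and 4.5% lower over all genes tested. Gbp8, a guanylate-binding protein gene, stood at 8.28, 10.2, 5.39 and 6.60 CPM in members and at 1.53, 1.70, 2.42 and 2.34 in matched cells, without overlap, and rose by 1.55 ± 0.22 on the log2 scale (adjusted p = 4.04e-06). Gbp9 (1.41 ± 0.35) and the GTPase gene Irgm2 (0.34 ± 0.10) also rose. Irf1 (0.13 ± 0.06), a transcription factor gene of that response, did not pass. Of 17 tested type I interferon genes 1 rose, the nucleic acid sensor gene Zbp1 (0.62 ± 0.16). That count is near the share over all genes. The rule left out cells with Ifit1 or Iigp1 UMIs in both classes. Of 15 tested MHC class I genes 8 rose and 2 fell (median 0.13), against the same 5.11% and 4.5%. H2-Q6 (0.26 ± 0.05), H2-T23 (0.23 ± 0.04) and H2-Q7 (0.22 ± 0.04), which encode class I chains, led the rises, and reads of such similar genes may be split between copies.

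Markers of other cell types were looked up because such cells also carry MHC class II. The summed level of 15 B cell genes was 80.2 to 156.8 CPM in members of the 4 tubes and 76.9 to 130.8 in matched cells, and it was higher in the members of all 4 tubes, by 156.8 against 111.0 at most and 90.1 against 89.3 at least. Pax5 and Ms4a1 had 3 and 1 UMIs in all members and 3 and 3 in all matched cells, and Pou2af1 had 0 in members. Of 6 tested B cell genes Bank1, a B cell scaffold gene, rose (0.72 ± 0.17). Here as for the other lists below, 5.11% of all genes tested were higher and 4.5% lower. The 22 dendritic cell and macrophage genes summed to 1009 to 1190 CPM in members and 936 to 1093 in matched cells. This sum was likewise higher in the members of all 4 tubes. Of 10 tested 2 rose and 1 fell. The highest mean levels on the list were those of Flt3, named above as a progenitor gene (338 CPM in members and 278 in matched cells), Tcf4 (274 and 260) and Cst3 (240 and 236). In UMIs over all tubes, Itgax, Ccr2, Cx3cr1, Csf1r and Ly86 were lower in members, and every other gene of the list but Siglech was higher. Among the higher ones, C1qa had 32 UMIs in members and 14 in matched cells, and Lyz2 3815 and 3465. Zbtb46 was close, with 53 and 52. Defining genes of these cell types were rare: Siglech had 0 UMIs in both classes, Itgax 20 in members and 25 in matched cells, Xcr1 6 and 0, Clec9a 13 and 4, and the complement gene C1qc 33 and 7. The 14 T and NK cell genes summed to 100.9 to 143.0 in members and 140.6 to 172.7 in matched cells, with Cd3e, Cd8a and Trac at 0 UMIs in members, and Nkg7 fell by 0.40 ± 0.04. Of 4 tested endothelial and stromal genes 1 rose (Emcn, 0.27 ± 0.07) and 2 fell, with Cdh5 and Lepr at 0 UMIs in members.

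Cells with a UMI of a defining marker of another cell type made up 25.6% of paired members and 24.8% of matched cells, and without them the Cd74 log2 fold change was 3.60 and 859 of 12387 genes tested (6.93%) passed. Scrublet, a doublet caller, marked 4.74% of paired members and 2.63% of matched cells. Without marked cells 1112 genes passed, of which 1047 were among the 1238. Of cells with 2 hashtags, which the filters left out, Scrublet marked 35.6% in GEM-X and 27.0% in v3.1, so unmarked doublets may remain. In the 98 members with 10 or more UMIs of the 3 genes, 5 of them marked by Scrublet, the stem cell list summed to 5648 CPM, against 5931 in the other members. The B cell list summed to 117 in the 98 and 123 in the others, and the dendritic cell and macrophage list to 1339 and 1114. The part of such cells in the other results was not tested.

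The share of members among eligible cells ranged between 10.5% and 14.2% over the tubes. It was 12.8% (exact 95% interval 11.5% to 14.2%) and 10.5% (9.40% to 11.8%) in the tdTomato-positive tubes of mouse 1 and mouse 2. In the tdTomato-negative tubes it was 14.2% (13.4% to 14.9%) and 11.8% (11.1% to 12.5%). The positive tube was lower in both mice, by 1.36 and 1.25 points, with means of 11.7% in the positive and 12.97% in the negative tubes. For the difference of -1.30 points an exact permutation test over unpaired tubes gave a two-sided p of 0.667, but 0.333 is the smallest that 2 against 2 allows, so no difference could have passed. When each cell was thinned to 5000 UMIs, which left out 11.6% of positive and 10.2% of negative cells as too shallow, the positive tubes had shares of 8.25% and 6.54% and the negative ones 6.64% and 7.16%. The mean difference was then 0.50 points: the positive tube of mouse 2 was lower at both depths, whereas that of mouse 1 was lower before thinning and higher after it.

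By chemistry, the share was 12.5% (11.9% to 13.1%) in GEM-X and 12.8% (12.2% to 13.5%) in v3.1. Members had median totals of 9089 UMIs in GEM-X and 8488.5 in v3.1. Thinned to 5000 UMIs, the shares were 6.74% in GEM-X and 7.36% in v3.1, with 6.43% and 15.5% of cells left out as too shallow. The intervals cover counting error only, and with 1 library per chemistry there is no test of this difference.

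**Figure D4:**
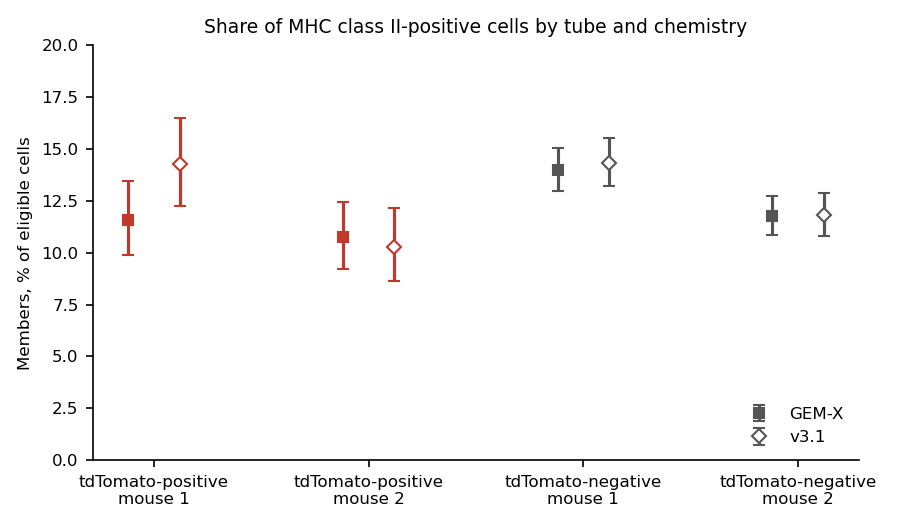
Share of members among eligible cells (y axis, percent, from 0) in each tube (x axis), GEM-X filled and v3.1 open, with exact 95% binomial intervals. The 8 shares lie between 10.3% and 14.3%, and the intervals of the gates of a mouse overlap in both chemistries.

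Within members, few genes differed between the tdTomato gates. With edgeR and the mouse as a block, 16 of 12594 genes passed (0.127%), 7 higher (0.0556%) and 9 lower (0.0715%) in the positive tubes, and 693 had an unadjusted p under 0.05. H2-Aa is among the 16 and among the 7, but members were picked by its UMIs, so its call is a description only. Genes of the rule were kept in these counts, whereas the counts of the class comparison leave them out. Cd74 stood at 148 and 231 CPM in members of the positive tubes of mouse 1 and mouse 2, and at 133 and 139 in those of the negative tubes. The positive tubes lay above the negative ones, and the log2 fold change was 0.44 ± 0.06 (adjusted p = 4.12e-08). The tube of mouse 2 carried most of this, with differences of 0.16 in mouse 1 and 0.73 in mouse 2, and of 0.02 in GEM-X and 0.77 in v3.1. Cd74 did not pass with DESeq2 (0.44, adjusted p = 1.0), in GEM-X alone (0.03), without the block (0.46, adjusted p = 1.0), or without members of 10 or more UMIs of the 3 genes (0.32, adjusted p = 0.969). Nor did it pass without the positive tube of mouse 2 (0.14), the negative tube of mouse 1 (0.44) or that of mouse 2 (0.49), and this fit has 1 residual degree of freedom and pools the spread over genes.

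Elane stood at 11.4 and 11.0 CPM in members of the positive tubes and at 35.3 and 41.2 in those of the negative tubes, without overlap. Its log2 fold change was -1.75 ± 0.17 (adjusted p = 2.19e-19), and it was the gene that passed with DESeq2 as well (-1.76, adjusted p = 0.0012). It was 0.03 in members without a cell cycle-gene UMI, and it did not pass in members with both H2-Aa and H2-Eb1 (-0.93, adjusted p = 0.489). Mpo was lower by 0.32 ± 0.06 on the log2 scale, with differences of -0.16 in mouse 1 and -0.61 in mouse 2. Dlg2, a synaptic scaffold gene, stood at 118 and 115 CPM in positive tubes, against 87.9 and 91.8 in negative ones, and rose by 0.38 ± 0.08 (adjusted p = 0.00127). Jun, an AP-1 transcription factor gene, stood at 93.6 and 70.4 in the positive and 65.1 and 60.2 in the negative tubes, and rose by 0.41 ± 0.09 (adjusted p = 0.00668). Neither Dlg2 nor Jun passed with DESeq2, without the block, in GEM-X alone (adjusted p = 0.438 and 0.825), in v3.1 alone (adjusted p = 0.171 and 0.0858) or with any 1 tube left out, where the log2 values were 0.34 to 0.41 for Dlg2 and 0.15 to 0.59 for Jun.

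Myh10, a nonmuscle myosin gene, rose by 0.95 ± 0.23, while Auts2, a transcription regulator gene, fell by 0.32 ± 0.07 and Dscam, an adhesion molecule gene, by 1.05 ± 0.25 on the log2 scale. Outside the naming rule, Ms4a3 (-1.56 ± 0.31), Car1 (-2.52 ± 0.36), Ermap (-3.69 ± 0.91), Slc25a21 (-2.44 ± 0.40) and H2afx (-0.29 ± 0.06) also fell, and Gm42418 (0.15 ± 0.02) and Cmss1 (0.18 ± 0.03) rose. By chemistry, Car1 differed by 0.20 in GEM-X and -3.20 in v3.1, Slc25a21 by 0.91 and -5.20, Gm42418 by 0.06 and -0.08, and Cmss1 by 0.11 and -0.05, so the sign was not shared. Of the 16 genes, Elane alone passed with DESeq2 and without the block, and Myh10, Auts2 and Dscam did not pass with any 1 tube left out. Of the lists, granulocyte-monocyte genes had 3 falls among 15 tested and erythroid genes 2 among 10, against 0.0715% lower over all genes tested. No stem cell gene (23 tested) and no G2/M gene (23 tested) passed.

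**Figure D5:**
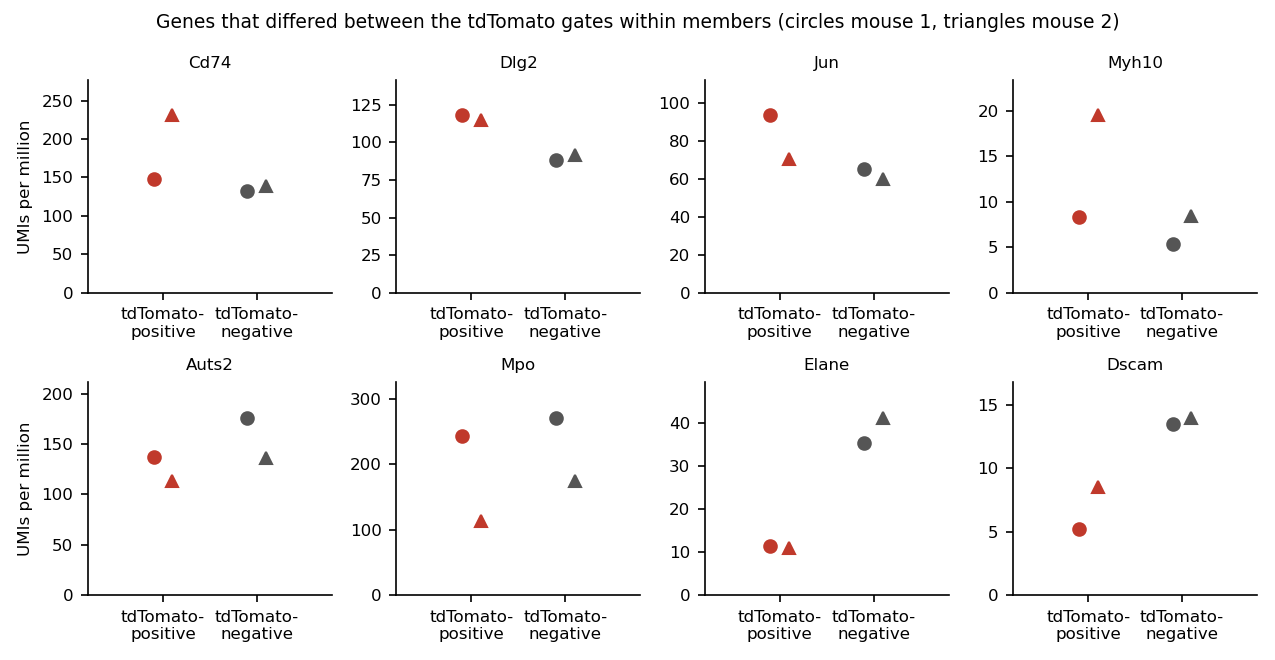
Levels (y axis, CPM, from 0) of 8 genes in members of the tdTomato-positive (red, left) and tdTomato-negative (grey, right) tubes, circles mouse 1 and triangles mouse 2. Elane lay at 11.4 and 11.0 in the positive and 35.3 and 41.2 in the negative tubes, and the Cd74 value of 231 is the positive tube of mouse 2.

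Whether the gates differed otherwise in members than in matched cells was tested with the class by gate term. None of 12888 genes passed with edgeR or with DESeq2, and 585 had an unadjusted p under 0.05 with edgeR. The term was -2.10 ± 0.38 for Elane and -2.04 ± 0.38 for Ms4a3 on the log2 scale (adjusted p = 0.156 each), and 0.34 ± 0.22 for Cd74 (adjusted p = 0.991). In simulated counts of this design 57% of changes of 0.5 and 88% of changes of 1 on the log2 scale were recovered. These changes were put only in genes above 10 CPM, and every gene had the same dispersion. The shares therefore do not cover genes of lower level or larger spread.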

How the data were processed

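Single-cell gene expression and hashtag antibody libraries were analysed. Raw UMI counts of 32285 genes and 4 hashtags in each barcode were deposited. The GEM-X matrix was made by the authors with Cell Ranger 8.0.1, and that of v3.1 with 7.1.0, per the file headers, while the submitters' processing notes name 7.0.0 and mm10. A deposited text of another kind pairs each hashtag with a mouse and gate. The chemistry of a matrix was inferred from its name and Cell Ranger version, so version and chemistry cannot be told apart.

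Cells were kept with at least 1000 genes, at most 10% mitochondrial UMIs and a top hashtag of at least 10 UMIs and 3 times the next. Sums per tube were tested with edgeR 4.0.16 in R 4.3.3 (TMM, filterByExpr, glmQLFit, glmQLFTest) and Benjamini-Hochberg adjustment over all genes, the alternative being DESeq2 1.42.0. Standard errors pool the spread over genes. Classes were paired within a tube and gates within a mouse, which the labels give. In simulated data for the member comparison 99% of log2 changes of 0.5 were recovered, and for the gates 65%. Here too the changes were put only in genes above 10 CPM, and every gene had the same dispersion. A change had the same size in every tube, so these shares do not cover a spread of changes between mice. Doublets were called with Scrublet (scanpy 1.11.5) as the top 6% of scores, since its automatic threshold called 0% of GEM-X cells. Intervals are Clopper-Pearson. Coordinates are from GENCODE M21, matched for 32158 symbols.

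Named genes were the 4 MHC class II genes, up to 10 higher and 10 lower genes with the largest log2 fold change (at least 10 CPM, the same sign in every tube and chemistry, unnamed models and near-identical families left out) and up to 4 of each list. The members and the 20 lists were chosen with earlier results of these data known. No other column of per-sample values was used. Results for some genes are not reported here.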

Additional observations from a re-analysis of the deposited data

How the results depend on the processing

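For members against matched cells, 1238 genes passed. The count was 309 with DESeq2, 624 in GEM-X alone, 612 in v3.1 alone, 450 for members with all 3 genes, 167 with no replicate block, 375 without cells with a cell cycle-gene UMI, 191 without cells with a lineage-gene UMI and 49 without either. It was 395 to 1201 when 1 tube was left out, the lowest when the negative tube of mouse 1 was out and 818 when that of mouse 2 was out. It stayed within 1.5 times under the other alternatives. For the gates within members 16 genes passed, against 1 with DESeq2, 1 for members with all 3 genes, 6 in GEM-X alone, 1 with no replicate block, 9 without Scrublet calls, 0 without cells with a cell cycle-gene UMI (edgeR), 3 without either set, 1 without members of 10 or more UMIs, and 1 to 6 when any 1 tube was left out. The class by gate term gave 0, against 5 for members with all 3 genes, 4 in GEM-X alone, 3 in v3.1 alone, 3 without cells with another-cell-type marker, and 0 to 30 when 1 tube was left out, the 30 without the positive tube of mouse 2.

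The share of members (12.6%) was 3.36% with all 3 genes required, 41.4% with at least 1, 7.01% after thinning and 8.22% of all filtered cells. The gate difference of -1.30 points was 0.50 after thinning and -2.49 to -0.113 with 1 tube left out.

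Signs turned for these genes between members and matched cells (log2 values). In members with all 3 genes it was Gp5 (0.067). Without cells with a cell cycle-gene UMI they were Car1 (3.33) and Cenpa (0.28), and without cells with a lineage-gene UMI Emcn (-0.13), Zfp36 (-0.054), Pecam1 (0.011) and Klf6 (-0.034). Without either they were Myo5c (-0.052), Tgfbi (-0.089), Cenpa (0.12) and Irgm2 (-0.072). Between the gates Auts2 turned in members with H2-Aa and H2-Eb1 (0.065), with all 3 genes (0.22) and without lineage-gene UMIs (0.015). Elane (0.026), Mpo (0.10), Cmss1 (-0.14) and Gm42418 (-0.14) turned without cell cycle-gene UMIs. Without lineage-gene UMIs Cmss1 (-0.10) and Gm42418 (-0.14) turned, without either Cmss1 (-0.14) and Gm42418 (-0.18), and in v3.1 alone Cmss1 (-0.065) and Gm42418 (-0.031). With 1 tube left out, Mpo ranged between -0.99 (positive tube of mouse 1 out) and 0.13 (positive tube of mouse 2 out), with 0.071 when the negative tube of mouse 1 was out. By the same 2 positive tubes H2afx ranged between -0.77 and 0.042, and Gm42418 between 0.32 and -0.032. The cause was not tested. The smallest sums, of 279 and 309 members, limit what single tubes can show.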
